A study of Fragaria vesca with 9 samples.

Results

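In axillary buds of woodland strawberry, *Fragaria vesca*, 124 genes were moved to opposite sides of the Hawaii-4 level by an FT3 line and by a second ecotype. They were chosen by their measured values in all 9 libraries. Expected counts were divided by the library total and scaled to the same sum in every library, giving CPM, and each value was taken as log2(CPM + 0.5). A gene belongs to the set if its mean over the libraries was at least 1 CPM, if the FT3OE and RdV means differed from the H4 mean by at least 0.3 with opposite signs, and if no library of one genotype lay within the range of another genotype. Genes from FvH4_4g29310 to FvH4_4g29630 were left out beforehand; none of the 22 of them with enough counts had separated genotypes with H4 between. Of 34006 genes in the deposited table, 16968 reached 1 CPM and are called the genes considered here. Of the 124 members, 88 were higher in FT3OE and lower in RdV, and 36 were lower in FT3OE and higher in RdV.

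There were 3 genotypes with 3 libraries each, all from undifferentiated buds at node 4 of untreated plants with 4 leaves, grown in 16 h days. Days were at 22 °C and nights at 18 °C. H4 is the ecotype Hawaii-4. FT3OE libraries carry the same ecotype and genotype label and FT3 in their titles, and the name FT3OE, from the study's design text, is taken to mean that FT3 was overexpressed. RdV is another ecotype, whose abbreviation the labels do not expand. The labels give neither the promoter that drives FT3, nor the number of independent lines, nor whether buds were pooled. Sample titles carry US4 in H4 and UB4 in the others; the codes are not defined, and a difference they may mark cannot be told apart from genotype in any comparison with H4. Nothing says that replicates came from separate plants, so the spread between them may be technical.

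A bud in the axil of a strawberry leaf may grow out as a runner, which makes daughter plants, or as a branch crown, from which further inflorescences can arise. Proteins of the FLOWERING LOCUS T family act as mobile signals that work with bZIP factors at shoot tips, and in plants they influence flowering as well as the growth of side shoots. H4 and FT3OE share an ecotype, whereas RdV differs from both by its whole genetic background. The files list identifiers without names, and 0 of the 34006 matched the gene table used here. Members are therefore given by identifier, with no role attached, and bud markers could not be looked up. The FvH4 identifiers are named after Hawaii-4.

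Library totals ran from 23110933 to 44916872 counts, and the 2 deepest libraries were both FT3OE. The identifier with the largest FT3OE rise, FvH4_3g09870, had 7584, 11460 and 13889 counts in FT3OE and at most 3 in any other library. No source used here pairs that identifier with FT3, so the overexpressed gene could not be looked up. Scaling by library totals leaves the middle of the distribution away from zero, since the median gene considered was 0.10 higher in FT3OE and 0.06 higher in RdV than in H4 on the log2 scale.

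With library totals, H4 was seldom the middle genotype. In bulk buds, fewer cells of a type and less RNA per cell cannot be told apart. The libraries of the 3 genotypes did not overlap in 2718 of the genes considered (16.0%). In 1213 of these the order rose from H4 over FT3OE to RdV, and in 659 it fell that way. RdV lay between in 335 rising and 135 falling genes. H4 lay between in 376 genes, or 2.22% of the genes considered, with 279 highest in FT3OE and 97 highest in RdV. Library totals leave the median gene considered higher in FT3OE and RdV than in H4, which favours orders with H4 lowest. The orders were not recounted under another scaling, so nothing is read from the balance of rising and falling genes. Of the 376, the 0.3 limit removed 252, of which 110 fell short in FT3OE alone, 26 in RdV alone and 116 in both. FT3OE and RdV are both measured from the same 3 H4 libraries, so nothing is read here from the relation between the changes.

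**Figure D1:**
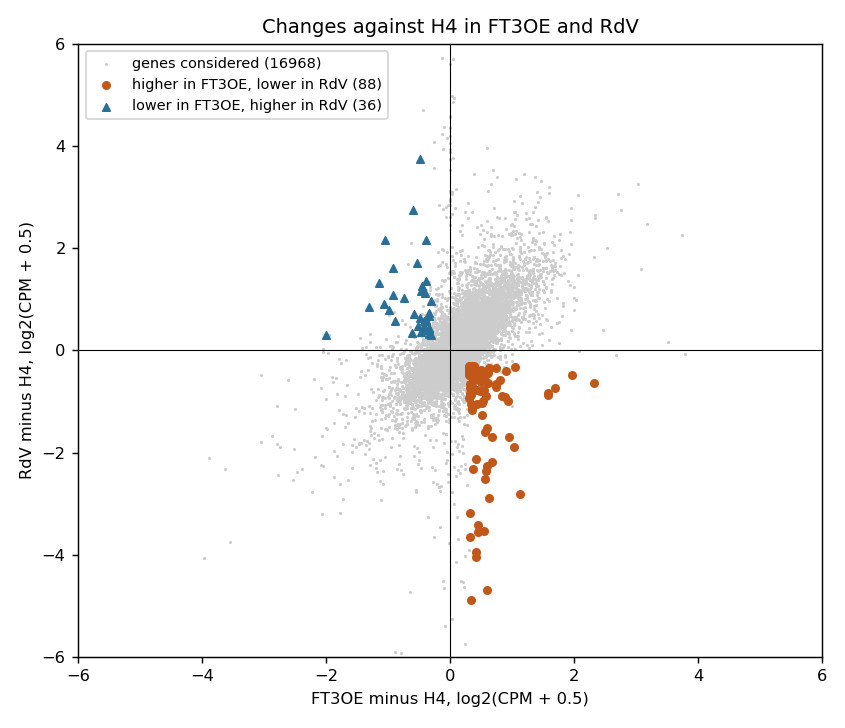
Each point is a gene considered, at its FT3OE minus H4 (horizontal) and RdV minus H4 (vertical) difference of mean log2(CPM + 0.5); members are coloured by direction, with 88 at lower right and 36 at upper left. Both axes stop at 6, which leaves out 10 genes considered and no member.

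For most members the RdV change was the larger one. With library totals it exceeded the FT3OE change in size in 90 of the 124 members, as it did in 62.1% of the genes considered. Among the 88 FT3OE-high members, the median difference from H4 was 0.45 in FT3OE and −0.74 in RdV. Among the 36 RdV-high members, the medians were −0.47 in FT3OE and 0.72 in RdV. With trimmed-mean (TMM) scaling the FT3OE and RdV medians were 0.37 and −0.82 in the FT3OE-high members, and −0.56 and 0.64 in the RdV-high members, so that the sides of the latter were closer in size. The FT3OE change reached 1 on the log2 scale in 13 members and the RdV change in 41. In 46 members the RdV change was at least 2 times the FT3OE change, in 7 the reverse held, and in 71 neither was 2 times the other. These sizes follow in part from the rule and are given as a description. Replicates of a member were spread somewhat more than those of other genes, with a median SD of 0.133 in H4, 0.117 in FT3OE and 0.167 in RdV on the log2 scale, against 0.0912, 0.0814 and 0.127 for the genes considered, which had a higher median level of 25.4 CPM against 7.76 CPM.

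**Figure D2:**
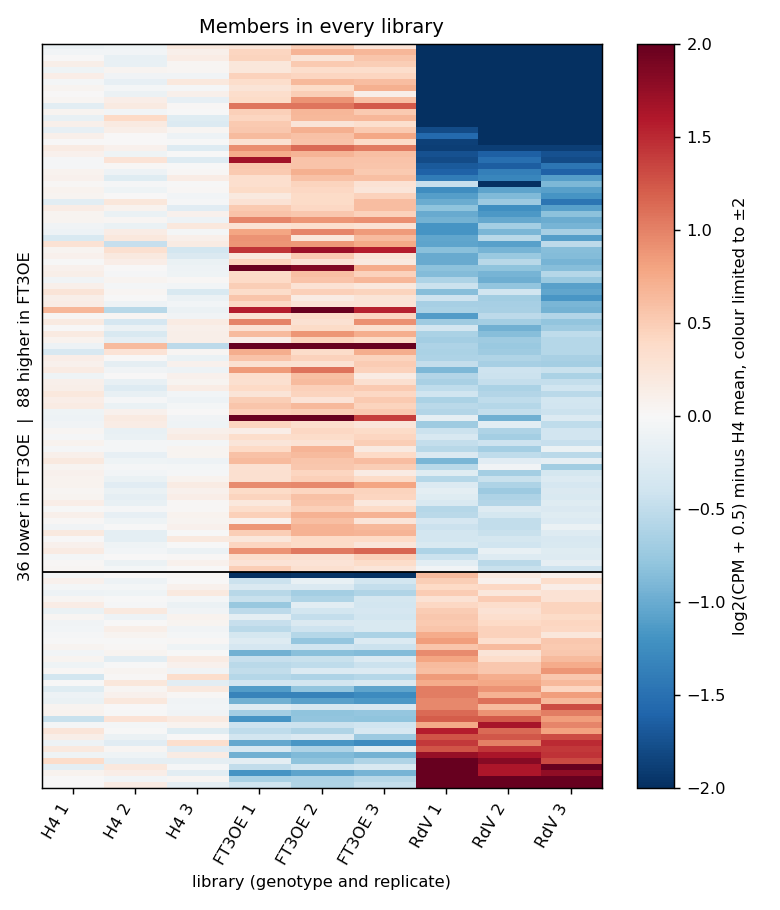
Rows are the 124 members, columns the 9 libraries, and colour is log2(CPM + 0.5) minus the H4 mean of the gene; colour stops at 2 in either direction, which holds for 66 of 1116 values. The top block is the 88 FT3OE-high members and the bottom block the 36 RdV-high members, sorted by the RdV change.

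The rule places every library of FT3OE and of RdV on its own side of H4, so the medians by library describe the sizes alone. Over the FT3OE-high members, the median position relative to the H4 mean was 0.43, 0.52 and 0.48 in FT3OE replicates 1, 2 and 3, and −0.69, −0.72 and −0.71 in RdV. For the RdV-high members the FT3OE libraries stood at −0.50, −0.60 and −0.45 and the RdV libraries at 0.84, 0.66 and 0.65. Many members were separated by little: the smaller gap between H4 and a neighbouring genotype had a median of 0.16 on the log2 scale, was under 0.1 in 49 members and reached 0.3 in 29. The narrowest was 0.0023, in FvH4_5g38660, and the widest 0.89, in FvH4_6g46610.

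With the pseudocount of 0.5, only 4 members changed by 1 or more on the log2 scale in both directions. The number depends on the pseudocount for members with low counts. With a pseudocount of 0.1 the smaller change also passed 1 in FvH4_4g11392 (1.71), FvH4_1g16930 (1.52), FvH4_7g25530 (1.16) and FvH4_4g15010 (1.13). FvH4_6g46610 had 3.65, 4.89 and 4.38 CPM in H4 replicates 1, 2 and 3, 9.51, 9.48 and 10.7 CPM in FT3OE, and 0.131, 0.481 and 0 CPM in RdV. FvH4_2g05520 had 1.58, 1.47 and 1.05 CPM in H4, 3.02, 3.54 and 3.29 CPM in FT3OE, and 0 in each RdV library. Both genes were about 2-fold higher in FT3OE and nearly or wholly unread in RdV. Differences from H4 in FT3OE and RdV were 1.12 and −2.82 for FvH4_6g46610, and 1.03 and −1.89 for FvH4_2g05520.

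FvH4_1g04740 and FvH4_3g36040 showed the same size of effect in the other direction. FvH4_1g04740 had 5.02, 4.59 and 6.96 CPM in H4, 2.42, 2.16 and 1.98 CPM in FT3OE, and 15.4, 11.5 and 16.3 CPM in RdV, differences of −1.15 and 1.31. FvH4_3g36040 had 0.69, 0.736 and 0.475 CPM in H4, 9.21, 2.96 and 3.36 CPM in RdV, and 0, 0.0454 and 0.0891 CPM in FT3OE, differences of −1.05 in FT3OE and 2.17 in RdV. In FvH4_3g36040 RdV replicate 1 was well above the other RdV libraries, and the FT3OE side rests on 6 counts, so that H4 stood 12.1 times above FT3OE over summed counts, with a 95% counting interval of 5.18 to 34.3.

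The next FT3OE-high members by the smaller of their changes included both balanced and one-sided patterns. FvH4_7g23181 was near symmetrical, with 8.37, 8.29 and 7.47 CPM in H4, 16.3, 15.2 and 15.6 CPM in FT3OE, and 3.93, 3.69 and 3.81 CPM in RdV. FvH4_7g18020 was likewise balanced, at 5.71, 6.88 and 5.97 CPM in H4, 11.1, 12.7 and 11.6 CPM in FT3OE, and 2.46, 3.03 and 3.69 CPM in RdV. These 2 genes sat about 1 log2 unit from H4 on each side, with differences of 0.92 and −0.99 in FvH4_7g23181 and of 0.88 and −0.92 in FvH4_7g18020. FvH4_6g54000 had the same form with a wider H4 spread, from 4.15 to 7.29 CPM, against 10.3 to 11.2 CPM in FT3OE and 2.52 to 3.96 CPM in RdV.

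Other members of this direction were less even among their libraries, between their sides, or both. FvH4_6g08720 had 97.1, 41.2 and 56.3 CPM in H4, 181, 241 and 178 CPM in FT3OE, and 39.1, 38.7 and 31.3 CPM in RdV. Its H4 libraries differed more than 2-fold among themselves, and the lowest of them lay just above the highest RdV library. Without H4 replicate 1 the smaller change of FvH4_6g08720 fell from 0.74 to 0.41. FvH4_1g16930 stood at 0.509 to 1.12 CPM in H4, 3.02 to 3.79 CPM in FT3OE and 0.185 to 0.229 CPM in RdV. FvH4_7g25530 had 7.85, 6.43 and 2.69 CPM in FT3OE, against 1.29 to 1.54 CPM in H4 and 0.56 to 0.592 CPM in RdV, so that FT3OE replicate 3 was well below the other FT3OE libraries. FvH4_4g15010 was also uneven within FT3OE, at 5.06, 2.09 and 2.07 CPM, against 0.95 to 1.6 CPM in H4 and at most 0.111 CPM in RdV. Without FT3OE replicate 1 the smaller change of FvH4_4g15010 fell from 0.94 to 0.57. The widest FT3OE gain of any member, 2.33 on the log2 scale, was in FvH4_6g46410, chosen after its values were seen, with 0.394, 0.995 and 0.17 CPM in H4, 5.47, 3.95 and 3.74 CPM in FT3OE, and 0.131, 0.074 and 0.149 CPM in RdV. Its H4 libraries were uneven, and without H4 replicate 2 the RdV difference moved from −0.64 to −0.33. FvH4_7g30780 closed the group of 10 by smaller change, with H4 at 0.692 to 1.22 CPM, FT3OE at 1.36 to 2.49 CPM and RdV at 0.373 to 0.444 CPM.

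**Figure D3:**
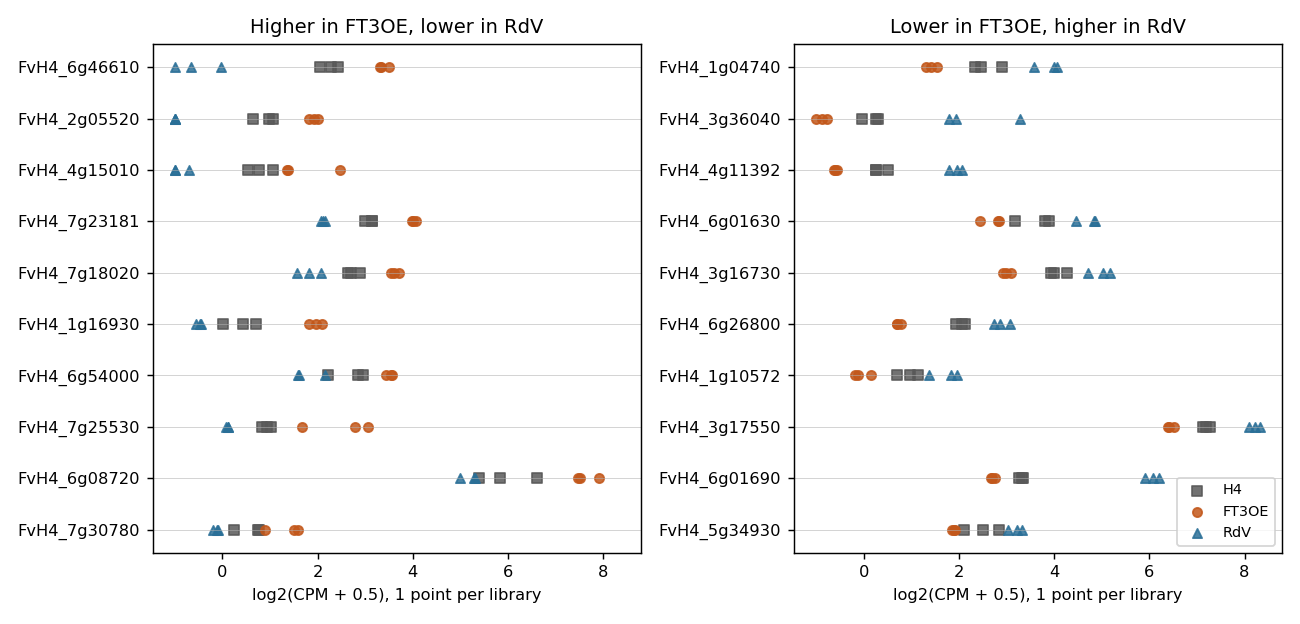
Points are single libraries on log2(CPM + 0.5) for the 10 members of each direction with the largest smaller change; squares are H4, circles FT3OE and triangles RdV. In each row H4 lies between the other genotypes, with the narrowest spacing in FvH4_6g54000 and FvH4_6g08720 on the RdV side and FvH4_7g30780 and FvH4_5g34930 on the FT3OE side.

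Among the RdV-high members, several were well expressed and evenly spaced. FvH4_3g17550 had 153, 145 and 139 CPM in H4, 90.5, 83.4 and 85.2 CPM in FT3OE, and 321, 273 and 297 CPM in RdV, with differences of −0.75 and 1.02. FvH4_3g16730 had 14.7, 18.9 and 15.4 CPM in H4, 8.08, 7.42 and 7.08 CPM in FT3OE, and 32, 35.4 and 25.9 CPM in RdV. Both were about 2-fold higher in RdV than in H4. FvH4_6g26800 had 3.35 to 3.85 CPM in H4, 1.13 to 1.22 CPM in FT3OE and 6.14 to 7.87 CPM in RdV. FvH4_1g10572 had 1.12 to 1.7 CPM in H4, 0.377 to 0.613 CPM in FT3OE and 2.09 to 3.38 CPM in RdV, and FvH4_5g34930 3.81 to 6.65, 3.13 to 3.27 and 7.65 to 9.57 CPM in the same order. FvH4_4g11392 was low throughout, at 0.69 to 0.916 CPM in H4, 0.151 to 0.182 CPM in FT3OE and 2.95 to 3.7 CPM in RdV.

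FvH4_6g01690 had 9.49, 9.04 and 9.71 CPM in H4, 5.89, 5.97 and 6.23 CPM in FT3OE, and 66.5, 59.7 and 73.4 CPM in RdV, so an RdV difference of 2.75 stood beside an FT3OE difference of −0.60 on the log2 scale. FvH4_2g40150, chosen after its values were seen as the member with the largest RdV gain, had 0.263, 0.346 and 0.17 CPM in H4, 0.0755, 0 and 0.0445 CPM in FT3OE, and 8.1, 10.7 and 10.6 CPM in RdV. Its FT3OE side rests on 21 counts in H4 and 4 in FT3OE, a ratio of 7.3 over summed counts with a 95% counting interval of 2.46 to 29.3. At the other end, FvH4_1g04240 had the largest negative FT3OE difference on log2(CPM + 0.5), −2.01, with 20.4, 21.2 and 21.4 CPM in H4, 4.57, 5.04 and 4.94 CPM in FT3OE, and 32.8, 23.8 and 22.4 CPM in RdV. Its RdV difference of 0.30 was the smallest of any member, and without RdV replicate 1 it was 0.13. By the ratio of mean CPM, without a pseudocount, FvH4_3g36040, FvH4_2g40150 and FvH4_4g11392 were further below H4 in FT3OE than FvH4_1g04240, at 14.1, 6.49 and 4.71 times against 4.33 times.

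Some FT3OE-high members had no reads in RdV at all, at the low end of 24 with under 20 counts in every RdV library. In 7 genes every RdV library held 0 counts, which allows up to 0.0356 CPM for a floor of 3 counts over the genotype, and a further 3 genes held 3 or fewer counts over the RdV libraries together. The rule places H4 above another genotype, so no member could have 0 counts in every H4 library. Only the 36 RdV-high members could have 0 counts in every FT3OE library, against 88 for RdV, and 0 of the 36 did. Apart from FvH4_1g09500, FvH4_2g05520 and FvH4_4g15010, these genes were chosen after their values were seen. FvH4_7g17700 had 404, 312 and 487 counts in H4 and 459, 896 and 781 in FT3OE, and was at least 407-fold lower in RdV than in H4. FvH4_1g09500 had 362, 274 and 393 counts in H4 and 445, 884 and 893 in FT3OE, and was at least 348-fold lower. FvH4_3g00831 and FvH4_4g26940 had 449 counts each over H4, a bound of 152-fold. For FvH4_2g20842, FvH4_1g23390 and FvH4_2g05520 the bounds were 115-fold, 57.9-fold and 38.3-fold. These bounds are on assigned reads, and the identifiers are named after Hawaii-4. Whether RdV carries these genes, in a form to which its reads can be assigned, was not tested. FvH4_3g00831 and FvH4_2g20842 had expected counts that were not whole numbers in 6 libraries each, which arises where reads are divided between similar genes. How far that division affects the bounds of FvH4_3g00831 and FvH4_2g20842 was not tested. The share of all genes considered with 0 counts in every RdV library is not given here.

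The FT3OE side of the same genes was far smaller. In CPM, FvH4_7g17700 stood at 13.3, 13.5 and 16.5 in H4 and 17.3, 20.3 and 17.4 in FT3OE, a difference of 0.34, and FvH4_1g09500 at 11.9, 11.9 and 13.3 in H4 and 16.8, 20.1 and 19.9 in FT3OE, a difference of 0.59. FvH4_2g20842 was close to overlap, with 4.08, 3.68 and 4.39 CPM in H4 and 5.29, 5.9 and 4.41 CPM in FT3OE. Among the 7 genes, the gain ran from 0.32 in FvH4_2g20842 to 1.03 in FvH4_2g05520. FvH4_4g16000, FvH4_4g15010 and FvH4_7g19080 had 1, 3 and 3 counts over RdV, and H4 stood 99.5 (17.5 to 3970), 34.5 (11.5 to 170) and 98.1 (33.3 to 479) times higher, with 95% counting intervals. Intervals and floors cover counting error only. Of these genes without or nearly without RdV reads, edgeR called the FT3OE rise only in FvH4_1g09500, FvH4_2g05520 and FvH4_4g16000, at an adjusted p under 0.05. With TMM scaling FvH4_7g17700, FvH4_2g20842 and FvH4_1g23390 left the set.

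Levels can be compared between genes only per length, in TPM, the authors' length-corrected values. The members were low by this measure, with a median of 6.57 TPM over the libraries against 21.5 TPM for the genes considered. The highest by far was FvH4_6g09960, at 1872 ± 66.7 TPM in H4, 2487 ± 142 in FT3OE and 1564 ± 101 in RdV (SD, n = 3 each). The H4 libraries of FvH4_6g09960 held 824, 846 and 861 CPM, those of FT3OE 1078, 1049 and 1168 CPM, and those of RdV 628, 702 and 707 CPM, with no overlap. Among the FT3OE-high members FvH4_3g16050 followed at 334 ± 13.4, 429 ± 11.6 and 257 ± 34.0 TPM in H4, FT3OE and RdV, and then FvH4_6g08720 at 78.9 ± 35.2, 249 ± 45.5 and 45.6 ± 5.38 TPM. The rank of FvH4_3g16050 rests on a short effective length, 0.087 times that of the median gene. Its mean was 34.8 CPM, against 100 CPM in FvH4_6g08720. In both FvH4_6g09960 and FvH4_3g16050 the smaller change was near the limit of 0.3, and neither gene stayed in the set with TMM scaling. The FT3OE and RdV differences were 0.38 and −0.31 in FvH4_6g09960, and 0.34 and −0.48 in FvH4_3g16050. The most abundant RdV-high members were FvH4_3g17550, at 140 ± 6.62, 85.3 ± 3.32 and 297 ± 34.3 TPM, FvH4_5g39730, at 48.1 ± 3.59, 36.4 ± 2.16 and 82.4 ± 8.15 TPM, and FvH4_5g23700, at 48.2 ± 5.86, 37.0 ± 2.68 and 66.9 ± 7.54 TPM.

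Values did not break at the edge of the set. Just inside lay FvH4_1g04240, FvH4_4g36140 and FvH4_4g25900, whose smaller changes were 0.301, 0.303 and 0.305. Just outside, with every other condition met, lay FvH4_6g40530, FvH4_7g18080 and FvH4_3g06511, at 0.299, 0.298 and 0.293. FvH4_4g36140 had 4.04, 3.59 and 4.24 CPM in H4, 4.91, 4.86 and 5.21 CPM in FT3OE, and 3.34, 2.55 and 3.43 CPM in RdV, and without RdV replicate 2 its smaller change was 0.19. FvH4_6g40530 had 8.05, 7.79 and 7.03 CPM in H4, 9.89, 9.01 and 9.55 CPM in FT3OE, and 5.21, 6.62 and 5.97 CPM in RdV, which is a pattern of the same size.

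All 124 members entered the edgeR fit of 18587 genes. The quasi-likelihood test called 69 of them for FT3OE against H4, where 31.7% of all genes tested were called. For RdV against H4 it called 114, against 48.1% of all genes, and for RdV against FT3OE 124, against 22.2%, at an adjusted p under 0.05. Of the 88 FT3OE-high members 39 were called higher in FT3OE and 84 lower in RdV, against 16.7% and 23.6% of all genes, and of the 36 RdV-high members 30 were called lower in FT3OE and 30 higher in RdV, against 14.9% and 24.4%. In 62 members both comparisons with H4 were called, in opposite directions each time, while 109 genes in all, or 0.586% of those tested, had such a pair of calls. The rule used the same contrasts, so nothing is read from these counts. The number with both calls was 40 without H4 replicate 1. Of the 47 genes with opposite calls outside the set, 29 were under the 0.3 limit, 12 had overlapping libraries and 6 were under 1 CPM.

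The split between directions depended on the scaling. With TMM scaling, which moved the median gene considered to 0.01 in FT3OE and −0.01 in RdV, 108 genes met the rule, 63 FT3OE-high and 45 RdV-high. The FT3OE-high share was then 58.3%, against 71.0% with library totals. Of the 124 members 83 stayed, 52 of the 88 FT3OE-high and 31 of the 36 RdV-high, and 25 other genes entered. No member changed the sign of either difference. Among the 41 members lost, 31 fell short of 0.3 in FT3OE, 5 fell short in RdV and 22 had libraries that overlapped, with some counted under more than one. In 13 settings the size limit and a minimum mean of 1 were kept, namely TMM scaling, TPM, pseudocounts of 0.1 and 1 and each library left out. The minimum was 1 TPM in the TPM setting and 1 CPM in the others. In all 13 settings 53 members stayed, 36 FT3OE-high and 17 RdV-high. They included FvH4_1g04740, FvH4_6g46610, FvH4_3g36040 and FvH4_2g05520.

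**Figure D4:**
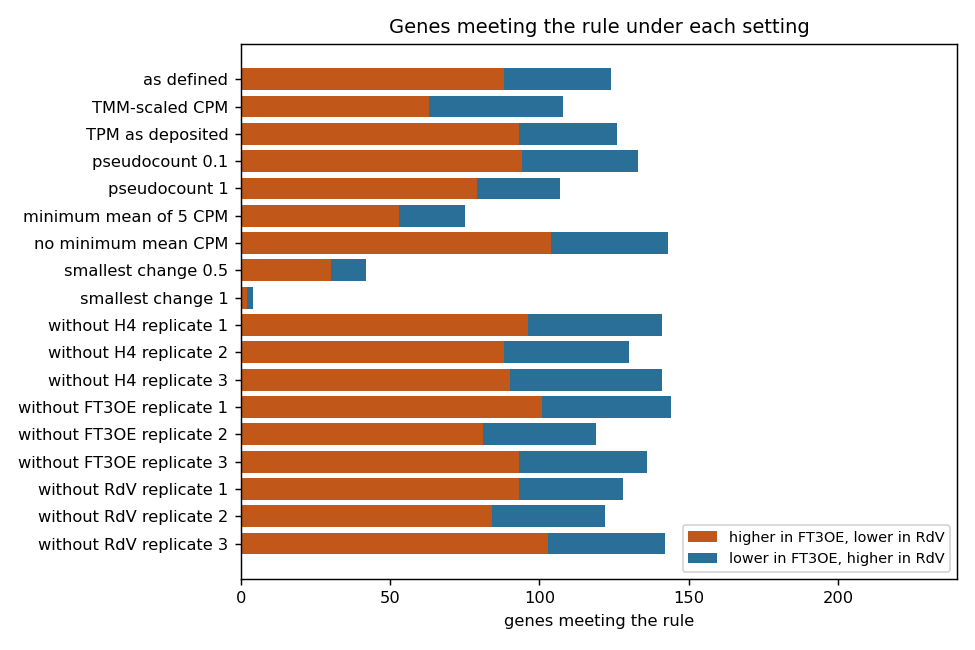
Bars give the number of genes that meet the rule under each setting, split into FT3OE-high (left) and RdV-high (right) genes, from 0. The total is 124 as defined, 108 with TMM-scaled CPM and 4 with a smallest change of 1.

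Some properties were not used to choose the members. By the digit before the g, read as the linkage group, 31 members (25%) lay on group 3, which held 15.7% of the genes considered, and 23 (18.5%) on group 1, which held 11.4%. Group 2 held 8 members (6.45%) against 15.0% of the genes considered. On the remaining groups the shares were within 5 percentage points, with members from 9.68% on group 5 to 15.3% on group 6. The effective length implied by the counts and TPM was close to typical, with a median of 1.02 times that of the median gene. Where each genotype had a library of at least 0.5 TPM, the effective length differed 1.2-fold or more from H4 in 0 of 119 members for FT3OE and in 0 of 102 for RdV; the genes with 0 counts in RdV had no such value. An expected count more than 1e-06 from a whole number, which arises where reads are divided between similar genes, was seen in at least 1 library for 17 members (13.7%) and for 5.37% of the genes considered. FvH4_3g17550 and FvH4_7g23181 had such counts in all 9 libraries, FvH4_3g00831 and FvH4_2g20842, both unread in RdV, in 6 each, and FvH4_6g46610 in 1. How far their levels hold reads of a similar gene was not tested.

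Neighbouring genes mostly did not follow the members. The genes considered next to FT3OE-high members on either side in identifier order, 171 in all with members left out, had a median difference of 0.12 in FT3OE and 0.00 in RdV, against 0.10 and 0.06 for the genes considered. Of these 171, 32 were called higher in FT3OE (18.7%, against 17.6% of the genes considered) and 49 lower in RdV (28.7%, against 24.7%). Of the 70 neighbours of RdV-high members, 11 were called lower in FT3OE (15.7%, against 15.8%) and 18 higher in RdV (25.7%, against 24.9%). In the direction of the adjacent members, the shares lay near the background, with the widest gap for genes lower in RdV. In the opposite direction, neighbours of FT3OE-high members had 15.8% lower in FT3OE (against 15.8%) and 21.1% higher in RdV (against 24.9%). Neighbours of RdV-high members had 11.4% higher in FT3OE (against 17.6%) and 20% lower in RdV (against 24.7%). The widest gap of all was for genes higher in FT3OE beside RdV-high members. Whether any gap exceeds sampling variation was not tested.

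**Figure D5:**
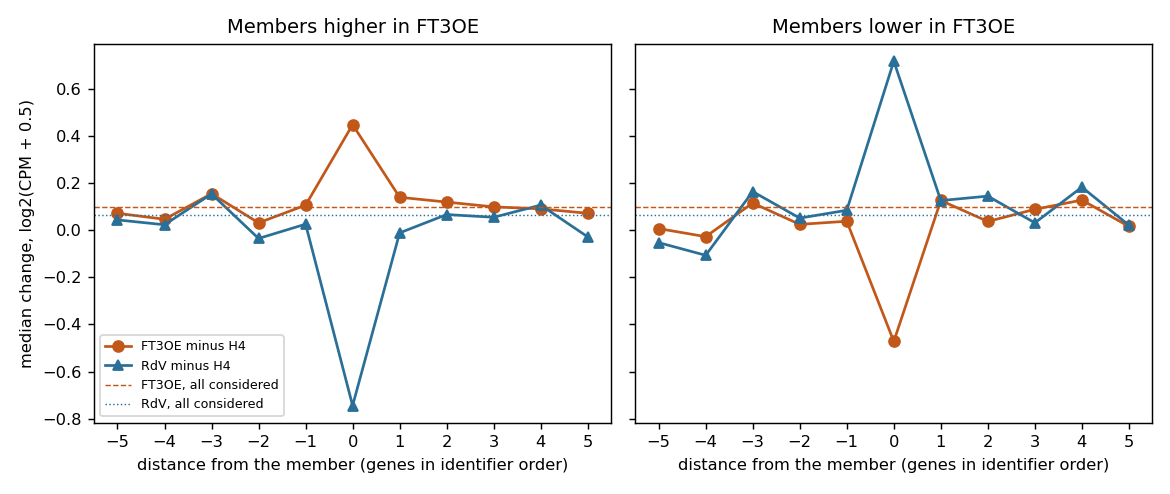
Medians of FT3OE minus H4 (circles) and RdV minus H4 (triangles) on log2(CPM + 0.5) by distance from a member in genes, with members left out except at 0; dashed and dotted lines are the medians of all genes considered. The medians at 0 were chosen by the rule, and from 1 gene away they lie near the lines.

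Where members did lie close together, 10 pairs stood within 5 tested genes of each other, 7 of them with the same direction. No expected number of such pairs, or of pairs sharing a direction, was computed, so no clustering is read from them. FvH4_6g52370 and FvH4_6g52371 were adjacent. FvH4_6g52370 had 2.79 to 3.5 CPM in H4, 4.79 to 5.52 CPM in FT3OE and 0 to 0.557 CPM in RdV. FvH4_6g52371 had 9.78 to 11.1, 15.3 to 17.4 and 3.08 to 3.77 CPM in the same order, so both had an FT3OE difference of 0.59 and RdV differences of −2.27 and −1.53. FvH4_7g30770 was adjacent to FT3OE-high FvH4_7g30780, at 0.887 to 1.47 CPM in H4, 1.5 to 2.68 CPM in FT3OE and 0.299 to 0.666 CPM in RdV. Whether reads of adjacent models are shared was not tested.

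The other pairs were farther apart. FvH4_6g01630 and FvH4_6g01690, with 1 tested gene between them, were both RdV-high, and FvH4_6g01630 had 8.6 to 14.4 CPM in H4, 4.98 to 6.65 CPM in FT3OE and 21.6 to 28.5 CPM in RdV. FvH4_1g10560 lay as close to FvH4_1g10572, and both were RdV-high, with differences of −0.35 and 0.32 in the former. FvH4_5g39660 and FvH4_5g39730, with 2 tested genes between them, were RdV-high, the former at 7.62 to 9.06, 4.85 to 6.72 and 20.5 to 21.3 CPM in H4, FT3OE and RdV. FvH4_6g51730 and FvH4_6g51770 were FT3OE-high, with RdV differences of −3.43 and −1.13, and so were FvH4_3g00580 and FvH4_3g00670, with RdV differences of −0.48 and −0.31. In 3 pairs the directions were opposed. FvH4_1g09500, unread in RdV, lay near FvH4_1g09560, which had 9.44 to 13.4 CPM in H4, 7.2 to 8.95 CPM in FT3OE and 20 to 34.4 CPM in RdV. FvH4_1g26680, at 38.8 to 46.6, 57.4 to 67.6 and 29.8 to 35.2 CPM, lay near FvH4_1g26760, at 2.48 to 3.48, 1.77 to 2.45 and 7.8 to 8.84 CPM. FvH4_5g38692 was FT3OE-high and FvH4_5g38660 RdV-high, with smaller changes of 0.37 and 0.31.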

How the data were processed

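The authors deposited expected counts per gene, which are estimates and not normalized, and TPM per gene, which divide by effective length and have a fixed sum per library. Per the submitters' processing notes the tools were STAR, RSEM and edgeR, with no version; the sources used here name no genome build. Per the labels' protocols, stranded mRNA libraries were read as 150 bp pairs.

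The members and lists were chosen with earlier results of these data known, and the gene lists by symbol could not be used because no identifier matched a name. CPM used library totals. For calls, expected counts were rounded, filtered with filterByExpr, scaled with TMM and fitted with glmQLFit and glmQLFTest of edgeR 4.0.16 (R 4.3.3), all 9 libraries in one fit, with Benjamini-Hochberg adjusted p under 0.05; the fit was tested on simulated data. Named genes are the 10 members per direction with the largest smaller change against H4, the 3 per direction with the highest TPM, the 3 on each side of the threshold and members within 5 tested genes of another; others are stated as chosen later. Counting intervals are exact 95% binomial intervals, computed with Python 3.11.15. Alternatives were other scalings, pseudocounts, minimums and size limits, DESeq2 1.42.0, no filter, the replicate number as a block and each library left out. Sequences are not used here.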

Additional observations from a re-analysis of the deposited data

How the results depend on the processing

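The size limit and the minimum level set how many genes met the rule. A minimum mean of 5 CPM left 75 genes (53 FT3OE-high, 22 RdV-high), a smallest change of 0.5 left 42 (30 and 12), and a smallest change of 1 left 4 (2 and 2). TMM scaling, TPM, pseudocounts of 0.1 and 1 and no minimum gave 107 to 143 genes, and leaving out 1 library 119 to 144. Members called in both comparisons with H4 numbered 62, from 40 without H4 replicate 1 to 75 without RdV replicate 2, and 79 with library totals alone, 64 with DESeq2, 62 with RLE scaling and 57 with no filter. With library totals alone the share of higher calls rose from 52.9% to 72.0% in FT3OE and from 50.9% to 62.5% in RdV against H4. Replicate numbers did not pair the libraries across all 3 genotypes. Deviations of same-numbered libraries from their group means correlated across genes at 0.062 to 0.329 between H4 and RdV, where each library matched its own number best. In the pairings with FT3OE they correlated at −0.290 to 0.074, and 0 of 6 matched their own number best. What the match between H4 and RdV reflects was not tested. With the replicate number as a block, 5312, 8533 and 3611 genes were called in FT3OE against H4, RdV against H4 and RdV against FT3OE, from 5884, 8936 and 4122, and 56 members in both comparisons with H4. Of 462 recomputed smaller changes of the 42 named members, 446 moved by less than the spread between replicates, 16 by more, and 0 reversed. The rule separates the genotypes, so a library left out or another pseudocount cannot reverse a sign, and only TMM scaling could. Leaving out 1 of 3 libraries also moves a mean by only part of its group's spread, so small moves were largely set in advance.

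Few counts limit some members: 24 held under 20 counts in every RdV library and 6 in every FT3OE library. For them the difference on log2(CPM + 0.5) understates the ratio.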
